A study of Homo sapiens with 6 samples.

Results

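Human forebrain organoids that had received vehicle only were described across all genes of the deposited table. Their libraries were taken as every column that carries a vehicle library's name, which gave 3 of the 6 libraries of the series. Per the labels, all 3 came from DYR0100, a human induced pluripotent stem cell line of WT genotype, and were grown by a dorsal forebrain differentiation protocol in 1 batch. Vehicle was given for 6 days, and the other 3 libraries, from organoids given 5 µM of the amyloid peptide Aβ42 over the same days, were not used here. A single line was used, and neither the age of the organoids nor the number pooled for each library is given in the sources used here. The design text calls the replicates independent, without saying whether they came from separate differentiations, so the spread below is that between these samples. Poly(A) RNA was sequenced.

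Forebrain organoids are free-floating aggregates in which pluripotent cells form neural tissue that follows the steps of the fetal cortex. Radial glia, the neural stem cells around the ventricle, divide to give intermediate progenitors, and these give glutamatergic neurons, first those of the deep layers and later those of the upper layers. Inhibitory GABAergic neurons arise in the ventral telencephalon, oligodendrocytes and astrocytes appear late, and microglia and blood vessels come from outside the neural tube. The choroid plexus, the epithelium that secretes cerebrospinal fluid, forms at the dorsal midline next to the cortical hem.

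The vehicle libraries held 16465390 to 16637602 estimated counts, so depth was nearly equal. TPM, the deposited unit of transcript abundance, scales counts by gene length and library total. A short transcript can therefore reach a high TPM from few counts, and levels of different genes are compared below in that unit. A gene was called expressed at a TPM of at least 1 in all 3 libraries, which 13066 of 18056 listed genes were, or 72.4%. A further 1132 genes, or 6.27%, had 0 counts in all 3, and a count of 0 allows up to 3 counts, or 0.180 to 0.182 CPM (counts scaled by the library total alone), for counting error only. Of 36 lists of region, cell type and state genes, 12 had every listed member expressed, 6 had none and 18 lay between. These lists hold genes chosen as marks of other lineages as well, and 202 of their 341 genes in the table were expressed, or 59.2%.

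The 6 genes taken as markers of the main cell classes spanned a wide range of TPM. TTR, the transthyretin of choroid plexus (chr18, 31591877 to 31598821 in GRCh38), was at 3299, 7487 and 3925 TPM in vehicle replicates 1 to 3, with replicate 2 far above the others (4904 ± 2259, mean ± SD, n = 3). TBR1, a transcription factor of deep layer neurons (chr2, 161416297 to 161425870), was at 152, 161 and 162 TPM. PAX6, a transcription factor of radial glia (chr11, 31789026 to 31817961), was at 105, 106 and 118 TPM. The intermediate progenitor factor EOMES (chr3, 27715953 to 27722713) was at 92.6, 115 and 91.5 TPM, so that replicate 2 exceeded PAX6 and the others did not. GFAP, the intermediate filament of astrocytes (chr17, 44903159 to 44915500), was at 31.0, 29.1 and 25.7 TPM. GAD2, a GABA-synthesising enzyme (chr10, 26216372 to 26304558), was at 0.48, 0.18 and 0.98 TPM, from 15, 5 and 30 counts. In this order of levels only PAX6 and EOMES overlapped between neighbours, and GAD2 was the only marker below the level called expressed. In bulk libraries fewer cells of a type and less RNA per cell cannot be told apart, so these are levels in the tissue as a whole.

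**Figure D1:**
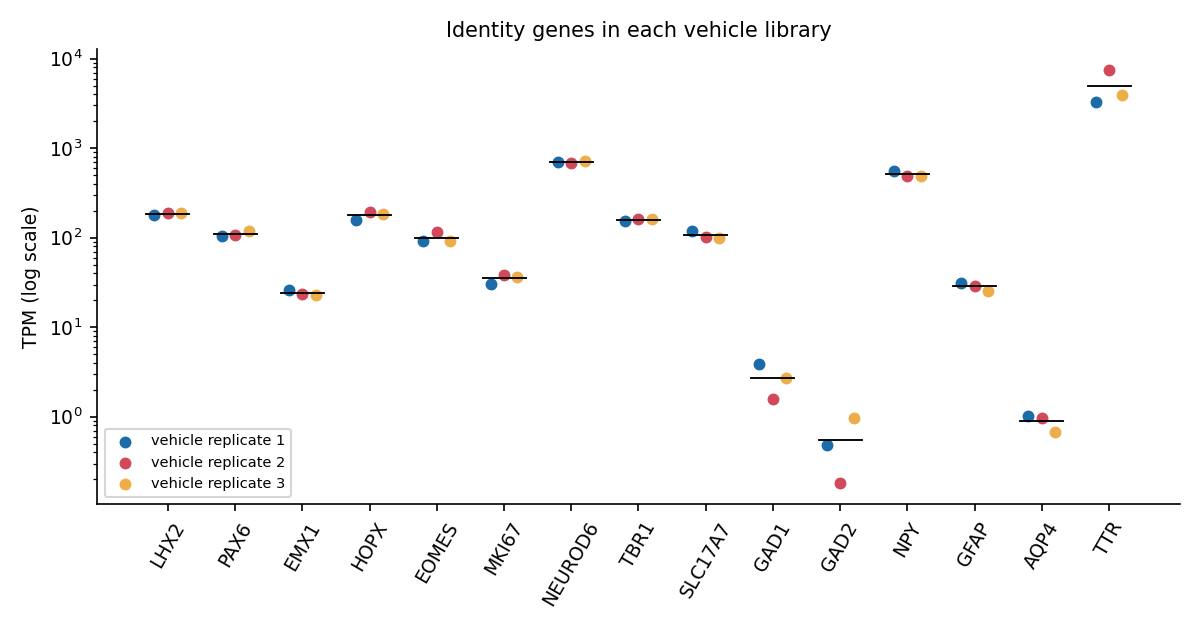
Identity genes in each vehicle library, with TPM on a log scale on the y axis, the 3 vehicle replicates as coloured points and their means as bars. The cortical genes lie close together among replicates, whereas TTR was at 7487 TPM in replicate 2 against 3299 and 3925 in the others, and GAD1 and GAD2 are low and scattered.

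Genes of dorsal telencephalic identity were expressed throughout. All 12 listed dorsal telencephalic genes were expressed, with 1000.1, 1055 and 1038 TPM in sum, and none with a mean TPM of at least 5 spread 1.5-fold among libraries. LHX2, which maintains cortical identity, was at 177, 188 and 187 TPM, and the patterning factor NR2F1 at 152, 169 and 152 TPM. EMX2 and EMX1, factors of cortical progenitors, were at 36.0, 36.7 and 37.9 TPM and at 26.2, 23.7 and 23.1 TPM. DMRT3 was the lowest member, at 1.53, 1.92 and 1.30 TPM.

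Ventral telencephalic genes were few. Of 12 listed, 3 were expressed, and NKX2-1, LHX8, GSX1 and ISL1, which specify the ganglionic eminences and their neurons, had 0 counts in all 3 libraries. DLX1, a factor of interneuron precursors, was at 5.63, 3.82 and 13.7 TPM, highest in replicate 3, and DLX5 at 4.24, 3.06 and 1.99 TPM. DLX2 was at 2.09, 0.98 and 3.96 TPM, just outside the rule for expression, and like DLX1 it was highest in replicate 3.

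Of 10 listed genes of the cortical hem, the dorsal midline signalling centre, 7 were expressed. That share, 70%, was close to the 72.4% of all genes in the table, and 4 members passed a minimum of 5 TPM. RSPO3, an enhancer of Wnt signalling, was at 35.4, 37.6 and 32.2 TPM and RSPO2 at 12.5, 20.5 and 9.47 TPM. WNT2B was at 8.51, 10.1 and 8.86 TPM and WNT8B at 6.49, 6.89 and 6.11 TPM, while WNT3A had at most 1 count. LMX1A, a factor of the hem and the choroid plexus, was at 2.03, 2.99 and 1.70 TPM. In CPM all 7 expressed hem genes were highest in replicate 2 and lowest in replicate 3, and in TPM 7 were highest in replicate 2 and 5 lowest in replicate 3. Over all expressed genes 34.1% were highest in replicate 2 and 29.9% lowest in replicate 3 (CPM).

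Genes of more posterior or ventral brain regions were largely below 1 TPM. None of 8 midbrain genes was expressed, with FOXA2 and LMX1B at 0 counts, and EN2, the highest, was at 0.56, 0.24 and 0.53 TPM, followed by PAX2 and PAX3 with at most 3 counts. None of the 23 HOX genes in the table, which pattern the hindbrain and spinal cord, was expressed, 8 had 0 counts in all 3 libraries, and the largest count of any was 14. Of 5 hindbrain genes analysed 2 were expressed, with EGR2 at 13.6, 8.90 and 11.5 TPM. EGR2 is also an immediate early gene, HOXC9 had at most 2 counts and HOXA3 had 0. PAX6 was the only expressed member of the 8 PAX genes, and none of 6 IRX genes was expressed.

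Of 8 thalamic genes TCF7L2, at 9.45, 9.13 and 9.47 TPM, and FOXP2, at 1.66, 1.21 and 2.05 TPM, were expressed. Neither is restricted to the thalamus, and SHOX2 was at 0 counts and LHX9 at 0.46, 0.25 and 0.95 TPM. Of 8 hypothalamic genes FEZF1 was expressed, at 1.98, 3.20 and 2.20 TPM, whereas NKX2-4, OTP and AVP had 0 counts and the hormone genes POMC and OXT at most 3. Eye genes were represented by RPE65, at 2.21, 7.06 and 2.60 TPM, and MITF, at 1.70, 1.93 and 1.36 TPM. The eye-field factor SIX6 and the pigment enzyme TYR had 0 counts, and ATOH7 was at 1.09, 0.63 and 0.75 TPM.

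**Figure D2:**
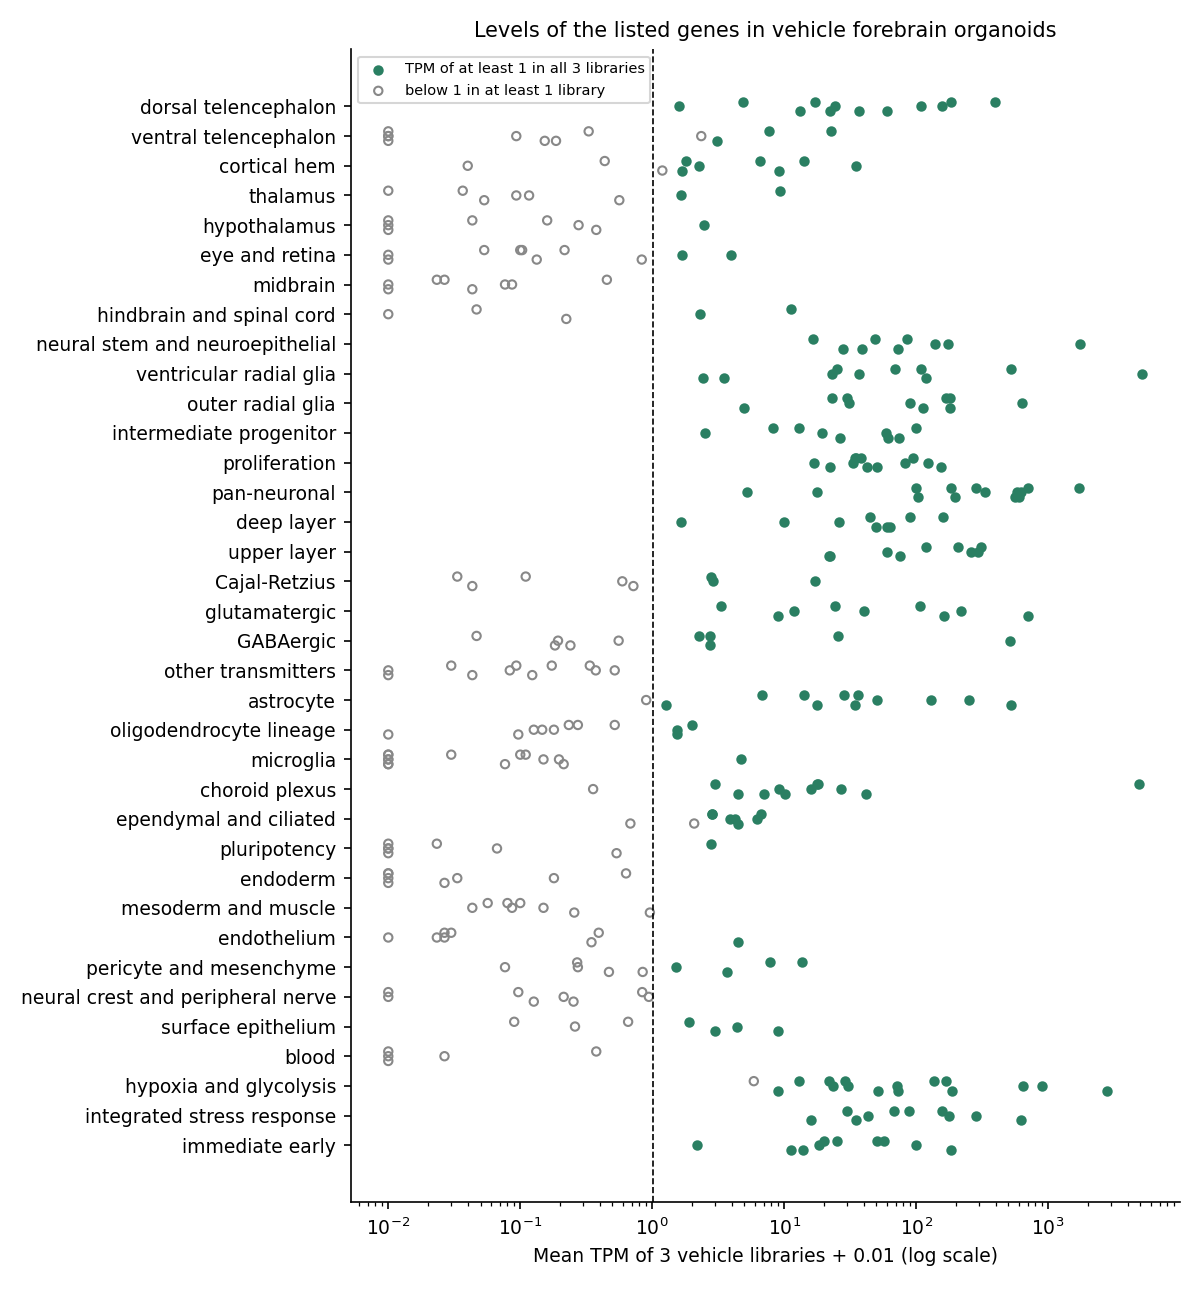
Levels of the listed genes, each a point at its mean TPM over the 3 vehicle libraries plus 0.01 on a log scale, filled where TPM was at least 1 in all 3. All 12 dorsal telencephalic genes are filled, while midbrain, endoderm, blood and neural crest lists hold open points only.

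Promoter sequence differed with expression over the whole table. RefSeq promoters of build GRCh38.p14 matched 14376 of the 18056 genes, and the 250 bases before the start site were read. Expressed genes had a median of 21 CG dinucleotides in this window, genes that were not expressed 6 and genes with 0 counts in all 3 libraries 4. TATAAA on the gene's strand stood in 3.36% of expressed and 14.7% of 0-count promoters, against 5.29% of all. A promoter of an expressed dorsal gene and those of a pair of genes at 0 counts are shown with CG in capitals, because they show both sides of this difference. EMX2 (chr10:117542496-117542745, plus strand) holds 20 CG, C1QA of microglia (chr1:22636213-22636462, plus strand) 3 and NKX2-1 of the ventral telencephalon (chr14:36520233-36520482, minus strand) 18.
EMX2: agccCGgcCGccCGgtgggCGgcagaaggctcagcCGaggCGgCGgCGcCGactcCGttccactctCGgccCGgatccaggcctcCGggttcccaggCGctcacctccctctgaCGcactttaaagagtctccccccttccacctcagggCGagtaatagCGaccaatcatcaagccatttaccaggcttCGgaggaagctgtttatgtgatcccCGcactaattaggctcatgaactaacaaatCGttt
C1QA: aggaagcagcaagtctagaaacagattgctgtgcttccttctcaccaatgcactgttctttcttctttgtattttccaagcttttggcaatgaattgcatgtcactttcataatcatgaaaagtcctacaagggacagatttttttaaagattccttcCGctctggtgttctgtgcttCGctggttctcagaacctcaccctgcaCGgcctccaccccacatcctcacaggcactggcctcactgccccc
NKX2-1: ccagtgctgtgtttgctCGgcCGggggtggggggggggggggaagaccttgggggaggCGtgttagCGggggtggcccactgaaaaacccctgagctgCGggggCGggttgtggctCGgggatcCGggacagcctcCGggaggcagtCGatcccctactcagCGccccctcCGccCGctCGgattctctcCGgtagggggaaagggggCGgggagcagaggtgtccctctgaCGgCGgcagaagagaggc
The C1QA window is poor in CG, as most windows of silent genes were, whereas NKX2-1 was silent with a CG content near that of EMX2. The ventral telencephalic list as a whole, with 9 promoters matched, had a median of 23 CG, and the dorsal list, also with 9, one of 20, so this measure did not separate them.

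Progenitors were represented by complete lists. All 9 neural stem cell genes were expressed, led by VIM, an intermediate filament of radial glia, at 1905, 1596 and 1703 TPM. CDH2, the N-cadherin of apical junctions, was at 168, 173 and 178 TPM and SOX2 at 138, 134 and 143 TPM. All 10 ventricular radial glia genes were expressed. FABP7, a fatty acid carrier of radial glia, was at 4888, 5226 and 5338 TPM, the 13th highest mean of all genes. SLC1A3, a glutamate transporter, followed at 484, 554 and 523 TPM, and PALLD at 117, 114 and 123 TPM. HES5, a target of Notch signalling, was the lowest at 3.39, 2.40 and 1.49 TPM.

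Outer radial glia, the basal stem cells that are abundant in primates, were likewise marked by 10 of 10 genes. PTPRZ1, a receptor phosphatase, was at 609, 636 and 661 TPM, MOXD1 at 171, 173 and 201 TPM and HOPX at 159, 194 and 186 TPM. FAM107A was at 178, 154 and 177 TPM. In CPM 6 of the 10 were highest in replicate 3, where 31.5% of all expressed genes were. The median member of this list had a mean of 102 TPM, against 53.1 TPM in the ventricular list, although the lists hold different genes and SLC1A3 and FABP7 alone carried most of the ventricular sum.

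Intermediate progenitor genes were expressed in 9 of 9 cases. Behind EOMES, the proneural factor NEUROG2 was at 78.2, 70.5 and 74.7 TPM and INSM1 at 53.7, 68.3 and 61.6 TPM. NEUROG1 was lowest at 2.02, 2.42 and 3.06 TPM. The ratio of EOMES to PAX6 was 0.882, 1.08 and 0.775. All 12 proliferation genes were expressed, led by PCNA, the clamp of replication, at 153, 160 and 148 TPM, TOP2A at 113, 137 and 117 TPM and NUSAP1 at 89.0, 104 and 90.8 TPM. MKI67 was at 30.6, 38.1 and 36.5 TPM. Of the 12 genes, 11 were highest in replicate 2 in CPM, where 34.1% of all expressed genes were, by a median log2 ratio to the mean of the other 2 of 0.18, and none spread 1.5-fold.

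Neuronal genes were even among the libraries. All 14 pan-neuronal genes were expressed, with a median coefficient of variation of TPM of 3.78% among libraries against 5.47% over all expressed genes. STMN2, a regulator of microtubules in growing axons, was at 1667, 1755 and 1737 TPM. TUBB3, neuronal tubulin, was at 668, 709 and 717 TPM and MAP2 of dendrites at 601, 652 and 627 TPM. RBFOX3, whose product NeuN marks mature neurons, was lower, at 19.2, 16.7 and 17.3 TPM, and NEFH, the heavy neurofilament of mature axons, was lowest at 4.62, 5.61 and 5.40 TPM. NEFM differed more than these, at 161, 224 and 169 TPM, and was highest in replicate 2.

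Both groups of cortical layer genes were expressed in full, 9 of 9 each. Among deep layer genes TBR1 was followed by SOX5, at 90.9, 90.0 and 88.5 TPM, and NR4A2, at 67.0, 67.2 and 56.1 TPM. BCL11B, the factor of subcortical projection neurons, was at 26.6, 25.03 and 26.6 TPM and FEZF2 at 53.9, 41.5 and 52.7 TPM. Among upper layer genes MEF2C was at 278, 341 and 304 TPM, POU3F3 at 284, 297 and 309 TPM and BHLHE22 at 233, 284 and 269 TPM. CUX2 was at 69.4, 79.6 and 79.1 TPM. All 9 upper layer genes were lowest in replicate 1 in CPM, where 35% of all expressed genes were, by a median log2 ratio of -0.11. In sum the upper layer list exceeded the deep layer list by 2.73 ± 0.24 fold (SD, n = 3), with the ratio at 2.46, 2.92 and 2.80 in the 3 libraries. The lists hold different genes, and MEF2C, POU3F3 and BHLHE22 carried most of the upper layer sum. The ratio therefore compares transcript sums and does not measure the numbers of neurons in each layer.

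Cajal-Retzius neurons, the first-born cells of the cortical surface, had 3 of 8 genes expressed. CALB2, which interneurons also make, was at 19.1, 15.0 and 16.9 TPM, RELN, the secreted protein that defines these cells, at 3.15, 2.95 and 2.31 TPM, and NDNF at 2.87, 3.77 and 1.96 TPM. TP73 was at 0.36, 0.98 and 0.41 TPM, and LHX1, LHX5 and NHLH2 had at most 2 counts in any library.

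Excitatory identity was marked by 9 of 9 glutamatergic genes. NEUROD6, a factor of cortical projection neurons, was at 694, 682 and 720.2 TPM, NEUROD2 at 222, 213 and 217 TPM and the AMPA receptor subunit GRIA2 at 154, 164 and 166 TPM. SLC17A7, the vesicular glutamate transporter of cortex, was at 118, 102 and 98.8 TPM, and SLC17A6, that of subcortical neurons, at 9.85, 14.6 and 11.4 TPM. Their ratio was 9.21 ± 2.56 (SD, n = 3). SLC17A8, the third vesicular glutamate transporter, was at 3.96, 16.6 and 6.25 TPM, and replicate 2 stood over 1.5 times above both others. CAMK2A, a kinase of mature synapses, was at 3.55, 3.20 and 3.22 TPM.

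Genes that define inhibitory neurons were at low levels. Of 10 GABAergic genes 5 were expressed, and these included GAD1 at 3.88, 1.59 and 2.71 TPM and CALB1 at 2.21, 4.18 and 1.81 TPM. CORT was at 2.92, 1.24 and 2.59 TPM but shares its strand and position with a CENPS-CORT readthrough gene. SLC32A1, the vesicular GABA transporter, had 3, 0 and 5 counts, and the subtype peptides SST and VIP and the protein PVALB had at most 1 count in any library. SLC17A7 exceeded GAD1 by 43.7 ± 18.0 fold (SD, n = 3), with ratios of 30.5, 64.1 and 36.4.

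NPY departed from the other members of that list. This neuropeptide of cortical interneurons was at 563, 489.8 and 489.4 TPM, from 879, 743 and 727 counts, all of them whole numbers, and no other protein-coding gene overlaps it in GENCODE 29. In TPM its level was above LHX2 in each library, but LHX2 had more counts, at 2526, 2585 and 2587. GAD2, SLC32A1 and SST were below 1 TPM in each library. Neurons of other transmitters left little trace. Of 11 listed genes of dopamine, serotonin, acetylcholine, glycine, noradrenaline and histamine neurons none was expressed, and DDC and SLC6A3 had 0 counts. SLC18A3, the vesicular acetylcholine transporter, was highest at 1.03, 0.36 and 0.14 TPM, followed by HDC at 0.32, 0.64 and 0.13 TPM and DBH at 0.36, 0.31 and 0.31 TPM.

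Of 12 astrocyte genes 11 were expressed, but the genes that radial glia share with astrocytes led the list. SLC1A3 was described above, CLU, a secreted chaperone, was at 244, 262 and 242 TPM, and SLC1A2, a glutamate transporter, at 127, 130.5 and 133 TPM. AQP4, the water channel of mature astrocytes, was at 1.02, 0.98 and 0.67 TPM, and AGT at 1.53, 1.08 and 1.16 TPM. HOPX exceeded GFAP by 6.35 ± 1.10 fold (SD, n = 3). Of the 10 astrocyte genes with a mean TPM of at least 5, 5 spread at least 1.5-fold between the highest and the lowest library in CPM, a rule met by 2.33% of the 11470 such genes, and they did not share a direction. SPARCL1, at 39.3, 66.8 and 44.3 TPM, S100B, at 16.3, 25.2 and 11.6 TPM, GJA1, at 13.5, 20.3 and 8.95 TPM, and APOE, at 34.4, 46.6 and 27.9 TPM, were highest in replicate 2. ALDOC, a glycolytic enzyme of astrocytes, was lowest there, at 46.8, 20.9 and 36.3 TPM.

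Genes that define oligodendrocytes and microglia were at or near 0 counts. Of 11 oligodendrocyte lineage genes 3 were expressed, among them CSPG4 at 1.93, 2.20 and 1.81 TPM and PDGFRA at 1.82, 1.47 and 1.29 TPM. SOX10, OLIG2 and OLIG1, the factors that define the lineage, had at most 7 counts, and NKX2-2 had 0. Of 14 microglia genes CD68, a lysosomal protein that other cells make, was expressed, at 4.28, 5.09 and 4.74 TPM. AIF1, TREM2, TYROBP, C1QA, C1QB and C1QC had 0 counts in all 3 libraries, and CSF1R and CX3CR1 had at most 6. At this depth microglial transcripts were not detectable above a few counts.

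Lineages outside the nervous system were below 1 TPM for most genes. None of 8 endoderm genes was expressed, with AFP, FOXA2, APOA2 and CER1 at 0 counts and ALB at 0.66, 0.38 and 0.83 TPM. None of 8 mesoderm and muscle genes was expressed, and MYH3 was highest at 0.85, 1.04 and 0.96 TPM. None of 8 neural crest genes was expressed, with PRPH at 0.98, 0.81 and 1.01 TPM and TLX3 at 0 counts, and none of 5 blood genes, with the haemoglobins HBA1 and HBA2 and MS4A1 of B cells at 0. Of 8 endothelial genes CLDN5 was expressed, at 3.0, 6.92 and 3.38 TPM, followed by TEK at 0.49, 0.40 and 0.26 TPM and KDR at 0.23, 0.54 and 0.24 TPM. PECAM1, CDH5, TIE1 and VWF, which define endothelium, had at most 2 counts and ERG had 0. Of 9 pericyte and mesenchyme genes DCN, a proteoglycan, was highest at 9.96, 22.3 and 8.67 TPM, PDGFRB was at 7.76, 7.85 and 7.76 TPM and ACTA2 at 3.28, 2.94 and 4.73 TPM, while the fibrillar collagens COL1A1, COL1A2 and COL3A1 were below 1 TPM in every library. Of 7 surface epithelium genes EPCAM, KRT8, KRT18 and CDH1 were expressed, with EPCAM at 9.68, 8.56 and 8.65 TPM, KRT8 at 4.05, 3.68 and 5.40 TPM and KRT18 at 2.65, 4.49 and 1.78 TPM, and the epidermal genes KRT5 and TP63 were not.

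The labels give the cell type as IPSC, the origin of the organoids. Of 8 pluripotency genes POU5F1 was expressed, at 2.65, 2.45 and 3.18 TPM, from 21, 19.7 and 24 counts. TDGF1, ZFP42, PRDM14 and UTF1 had 0 counts in all 3 libraries, NANOG and LIN28A at most about 1, and DPPA4 was at 0.46, 0.50 and 0.62 TPM. POU5F1 has near-identical copies elsewhere in the genome and its counts were not all whole, so its level is uncertain.

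The transcripts with the highest TPM were those of the cytoskeleton and of translation. TMSB4X, which binds actin monomers, had the highest mean, at 9168, 10217 and 9682 TPM, and RPS27 was next at 9971, 9107 and 9148 TPM. TMSB10, another thymosin, was at 8936, 8555 and 8922 TPM, and TUBA1A, the α-tubulin of developing neurons, at 7007, 7203 and 7513 TPM. EEF1A1, which brings tRNA to the ribosome, was at 6430.4, 5965 and 5896 TPM, and the actins ACTB and ACTG1 at means of 4097 and 3792 TPM. Among the 20 genes with the highest mean, 10 encode cytosolic ribosomal proteins, among them RPS27, RPL39, RPS24, RPL26, RPS29, RPS18, RPL9 and RPS3A. All 79 such genes in the table were expressed and took 17.3%, 15.5% and 16.4% of TPM in the 3 libraries, lowest in replicate 2. Of the 20 pairs of neighbours in this order 16 overlapped between libraries, so the exact order is not resolved by these replicates. The order is also one of TPM and not of counts. In replicate 1 RPS29 had 1135 counts at 5149 TPM, and EEF1A1 had 142694 counts at 6430.4 TPM. MTRNR2L2 and MTRNR2L8, with means of 6267 and 6237 TPM, are nuclear copies of the mitochondrial large ribosomal RNA gene, and their levels are uncertain because reads of that RNA can be assigned to them. The 10 highest genes took 7.15% to 7.27% of TPM, and 638 to 681 genes were needed to reach 50%.

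The 3 libraries were close to each other for most genes. Pearson's correlation of log2 CPM across 13483 genes was 0.9933 between replicates 1 and 2, 0.9953 between 1 and 3 and 0.9938 between 2 and 3, across genes, which are not independent replicates. The biological coefficient of variation fitted by edgeR over the 13483 genes kept by its filter was 5.38%. Among 11470 genes with a mean TPM of at least 5 the highest library was at least 1.5 times the lowest, in CPM scaled by TMM, for 267, or 2.33%. Of these 136 had a mean of at least 100 counts, a limit set after the values were seen. All 3 libraries bore on the count of 267, which was 99 without replicate 2, 156 without replicate 1 and 152 without replicate 3. Replicate 2 stood at least 1.5 times above both others for 34 genes and below both others for 34, each 0.296%. The corresponding counts were 14 above (0.122%) and 20 below (0.174%) for replicate 1 and 6 above (0.0523%) and 34 below (0.296%) for replicate 3. Since 1 library is set against 2, these differences describe the libraries and carry no test.

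**Figure D3:**
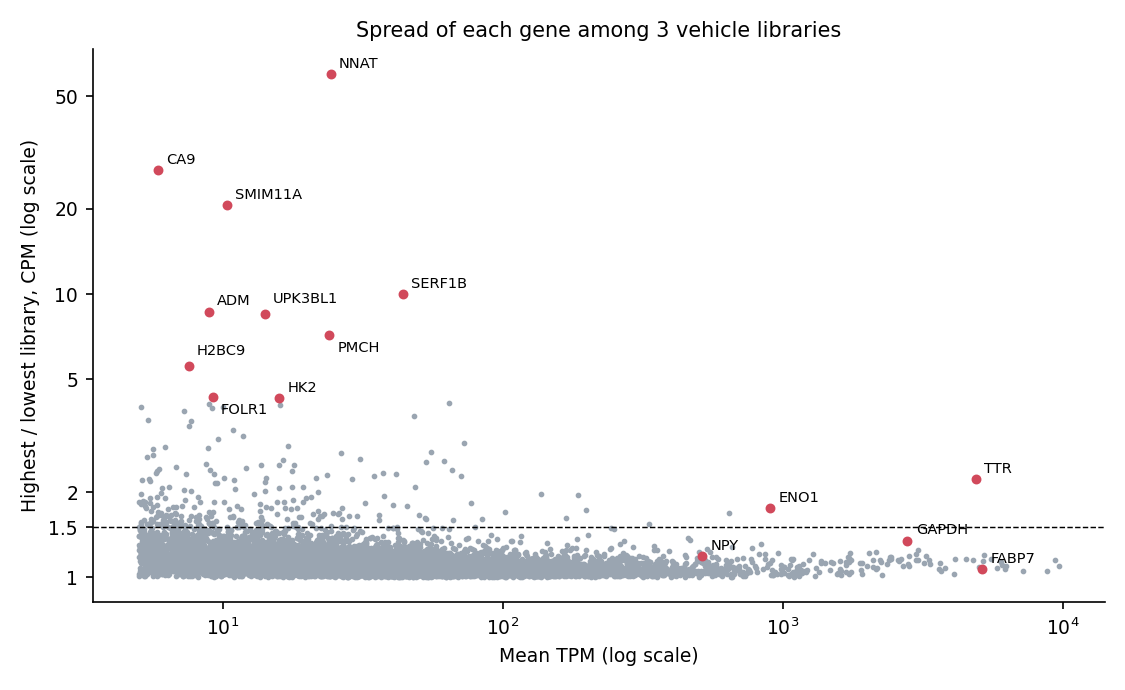
Spread among the 3 vehicle libraries, with each gene at its mean TPM (x, at least 5) and its ratio of the highest to the lowest library in CPM (y), both on log scales, named genes in red and a dashed line at 1.5. Most genes lie below the line and NNAT and CA9 far above it, while H4C11, at 0 counts in 2 libraries, has no ratio and is not drawn.

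The largest spread belonged to single genes of several kinds. NNAT, an imprinted gene that encodes the proteolipid neuronatin, had 7, 413 and 13 counts, or 1.19, 69.4 and 2.28 TPM, and was the gene with the largest finite ratio, 59.8-fold in CPM. It overlaps BLCAP on the opposite strand, which was at 156, 168 and 160 TPM, and whether counting used strand is not given in the sources used here. CA9, a carbonic anhydrase induced by low oxygen, was at 13.1, 0.49 and 4.02 TPM and overlaps ARHGEF39 on the opposite strand. ADM, adrenomedullin, was at 15.2, 1.79 and 9.70 TPM, in the same order of libraries as CA9. PMCH, the precursor of melanin-concentrating hormone, was at 25.7, 41.4 and 4.86 TPM, and FOLR1, the folate receptor of choroid plexus, at 3.37, 14.3 and 9.86 TPM. PMCH lies opposite PARPBP and its counts were not whole, so part of its reads may be shared. The other 5 of the 10 widest genes have near-identical copies or few counts. SMIM11A, SERF1B and UPK3BL1 had counts that were not whole, H2BC9 had 2, 8 and 11 counts, and H4C11 had 12.7 counts in replicate 1 and 0 in both others.

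Choroid plexus genes formed 1 of the groups that set replicate 2 apart. Of 12 listed genes 11 were expressed, and 10 of these 11 were highest in replicate 2, where 34.1% of all expressed genes were. The median log2 ratio of replicate 2 to the mean of the others, in CPM + 0.5, was 0.94 over the 11 genes, against -0.0014 over all expressed genes. Behind TTR, the ion channel TRPM3 was at 24.9, 39.0 and 16.9 TPM, CA2, a carbonic anhydrase, at 24.7, 58.6 and 41.4 TPM, and the serotonin receptor HTR2C at 13.8, 28.9 and 11.4 TPM. CLIC6, a chloride channel, was at 11.7, 28.4 and 13.0 TPM, KCNJ13, a potassium channel, at 2.54, 7.85 and 3.06 TPM, and OTX2, the transcription factor of this epithelium, at 8.89, 14.9 and 6.58 TPM. AQP1, its water channel, was the exception at 21.6, 17.4 and 8.77 TPM, highest in replicate 1. Of the 9 choroid plexus genes with a mean TPM of at least 5, 7 spread 1.5-fold, a rule met by 2.33% of all such genes.

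Ciliated cell genes lay on the same side. Of 9 listed 7 were expressed, or 77.8%, against 72.4% of all genes in the table. Of these 7, 6 were highest in replicate 2, where 34.1% of all expressed genes were (CPM), with a median log2 ratio of 0.43. DNAI1 was highest in replicate 1, at 3.20, 2.91 and 2.35 TPM. Of the 2 with a mean TPM of at least 5, 0 spread 1.5-fold. Counts were low, at 24, 75 and 31 for FOXJ1 and 13, 43 and 28 for RSPH1. FOXJ1, the regulator of motile cilia, was at 1.53, 4.94 and 2.03 TPM, CFAP126 at 5.31, 7.39 and 7.16 TPM, CCDC39 at 6.07, 6.34 and 6.16 TPM and RSPH1, a part of the ciliary spokes, at 1.93, 6.97 and 4.59 TPM. CCDC39 thus differed little while FOXJ1 stood far above in replicate 2. RPE65, CLDN5 and DCN, single members of the eye, endothelial and mesenchymal lists, were each highest in replicate 2 as well. SIX6, TYR and ERG had 0 counts and COL1A1 was below 1 TPM. In CPM DCN was the only 1 of the 4 expressed mesenchymal genes that was highest in replicate 2, where 34.1% of all expressed genes were. The median log2 ratio of that list was -0.05. Whether these genes belong to the same cells as TTR was not tested.

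Genes of hypoxia and glycolysis were lowest in replicate 2. These are targets of the HIF transcription factors, which switch metabolism to glycolysis when oxygen is short. All 16 had a mean TPM of at least 5, and 15 were at a TPM of at least 1 in every library. In CPM each of the 15 was highest in replicate 1, intermediate in replicate 3 and lowest in replicate 2, an order that 19.5% of all expressed genes had, while 34.4% were highest in replicate 1. In TPM 14 of the 15 had that order, and LDHA was highest in replicate 3. The median log2 ratio of replicate 2 to the others was -0.69, that of replicate 1 was 0.58 and that of replicate 3 was 0.09. The order also held for CA9, the gene that missed the limit in replicate 2.

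Glycolytic enzymes were among the most abundant members. GAPDH was at 3175, 2409 and 2780.1 TPM, ENO1, enolase, at 1110.1, 649 and 952 TPM, ALDOA, aldolase, at 782, 472 and 674 TPM and PGK1 at 199, 126 and 179 TPM. BNIP3, which directs mitochondria to degradation, was at 239, 125 and 195 TPM. VEGFA, the growth factor of blood vessels, was at 177, 95 and 139 TPM, DDIT4, an inhibitor of mTOR, at 113, 38.6 and 67.2 TPM and SLC2A1, a glucose transporter, at 34.8, 15.5 and 20.2 TPM. LDHA, lactate dehydrogenase, differed little, at 31.3, 28.0 and 31.7 TPM. Outside the list, HK2, the first enzyme of glycolysis, showed the same order at 25.3, 6.08 and 16.4 TPM and was chosen after its values were seen. Of the 16 listed genes 13 spread 1.5-fold, against 2.33% of all genes at that level, and GAPDH, SLC2A3 and LDHA did not.

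HIF factors bind DNA at sites that can hold the core ACGTG, the only form searched here. This motif, searched on both strands as ACGTG or CACGT, stood in the 250 bases before the start of 9 of the 14 listed hypoxia genes with a matched promoter, against 21.5% of all 14376 promoters. The share was 26.5% among genes with a mean TPM of at least 100, and small lists varied widely, with 4 of 7 thalamic promoters holding it. The hypoxia windows also had a higher median GC content, 69.8% against 63.2% over all promoters. The windows of CA9 (chr9:35673678-35673927, plus strand) and BNIP3 (chr10:131981924-131982173, minus strand) are shown with the motif in capitals, since both genes differed among the libraries and hold it.
CA9: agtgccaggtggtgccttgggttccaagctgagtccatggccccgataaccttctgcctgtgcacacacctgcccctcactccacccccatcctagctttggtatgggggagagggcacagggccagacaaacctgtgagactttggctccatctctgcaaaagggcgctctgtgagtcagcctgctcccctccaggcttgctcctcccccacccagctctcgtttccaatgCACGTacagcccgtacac
BNIP3: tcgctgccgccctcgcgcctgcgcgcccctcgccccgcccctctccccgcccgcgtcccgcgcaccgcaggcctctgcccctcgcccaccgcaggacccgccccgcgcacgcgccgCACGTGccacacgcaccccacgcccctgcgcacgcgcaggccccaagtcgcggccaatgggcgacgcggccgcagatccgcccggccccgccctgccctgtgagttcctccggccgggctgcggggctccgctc
CA9 holds 1 match and BNIP3 2 that overlap, because CACGTG reads as the motif on both strands. ADM, SLC2A1, ENO1, PDK1 and PFKFB4 held no match in this window, although they differed in the same order. A match is a description of the letters, and binding was not measured here.

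**Figure D4:**
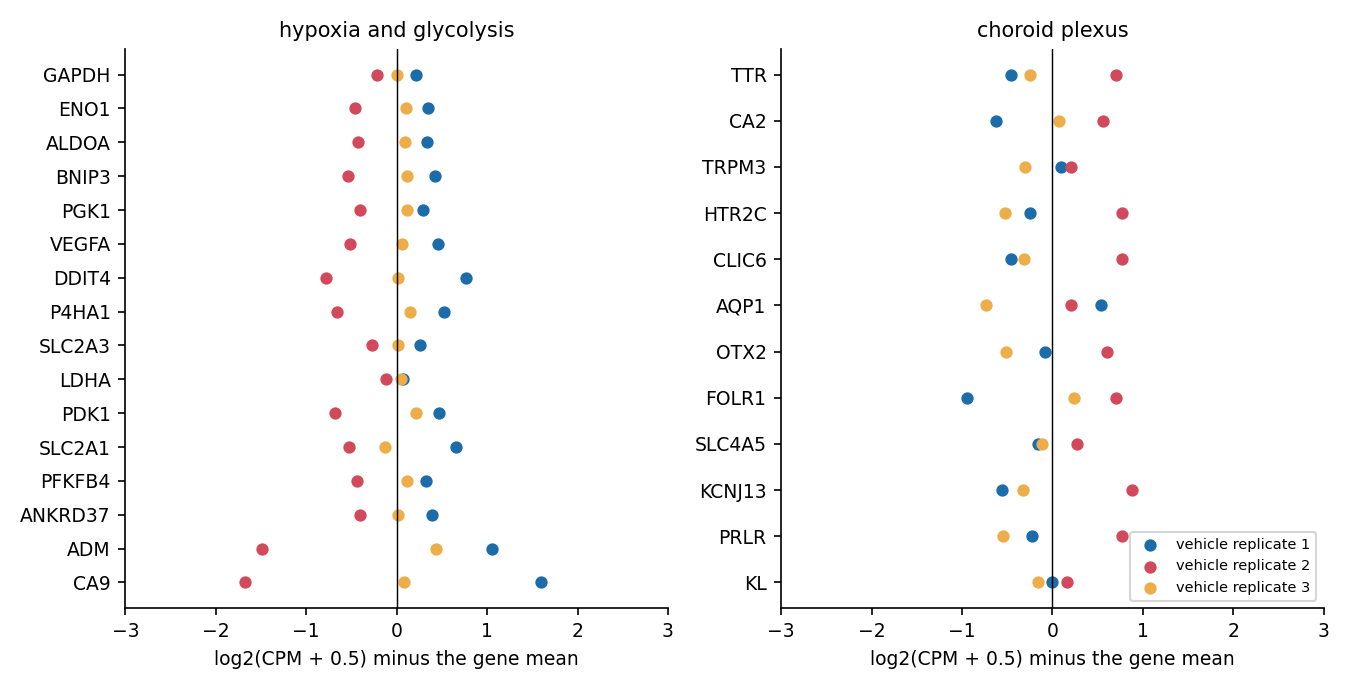
Hypoxia and choroid plexus genes in order of mean TPM, with log2(CPM + 0.5) minus the gene's mean over the 3 vehicle libraries on the x axis and the replicates by colour. Replicate 2 lies lowest for all 16 hypoxia and glycolysis genes and highest for most choroid plexus genes, with AQP1 as an exception.

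Stress and activity genes were expressed in full and differed less. All 10 genes of the integrated stress response, which limits translation under amino acid or folding stress, were expressed, ATF4 at 669, 594 and 623 TPM, ASNS at 305, 267 and 284 TPM and HSPA5 at 174, 183 and 179.7 TPM. Of these 8 were lowest in replicate 2, where 35.2% of all expressed genes were, with a median log2 ratio of -0.16, and none spread 1.5-fold. All 10 immediate early genes, which neuronal activity or handling induces, were expressed, JUN at 190.4, 167 and 193 TPM, EGR1 at 101, 88.0 and 109 TPM and FOS at 60.9, 46.0 and 63.9 TPM. Of these 9 were lowest in replicate 2, with a median of -0.31, and of the 9 with a mean TPM of at least 5 EGR2 alone spread 1.5-fold.

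**Figure D5:**
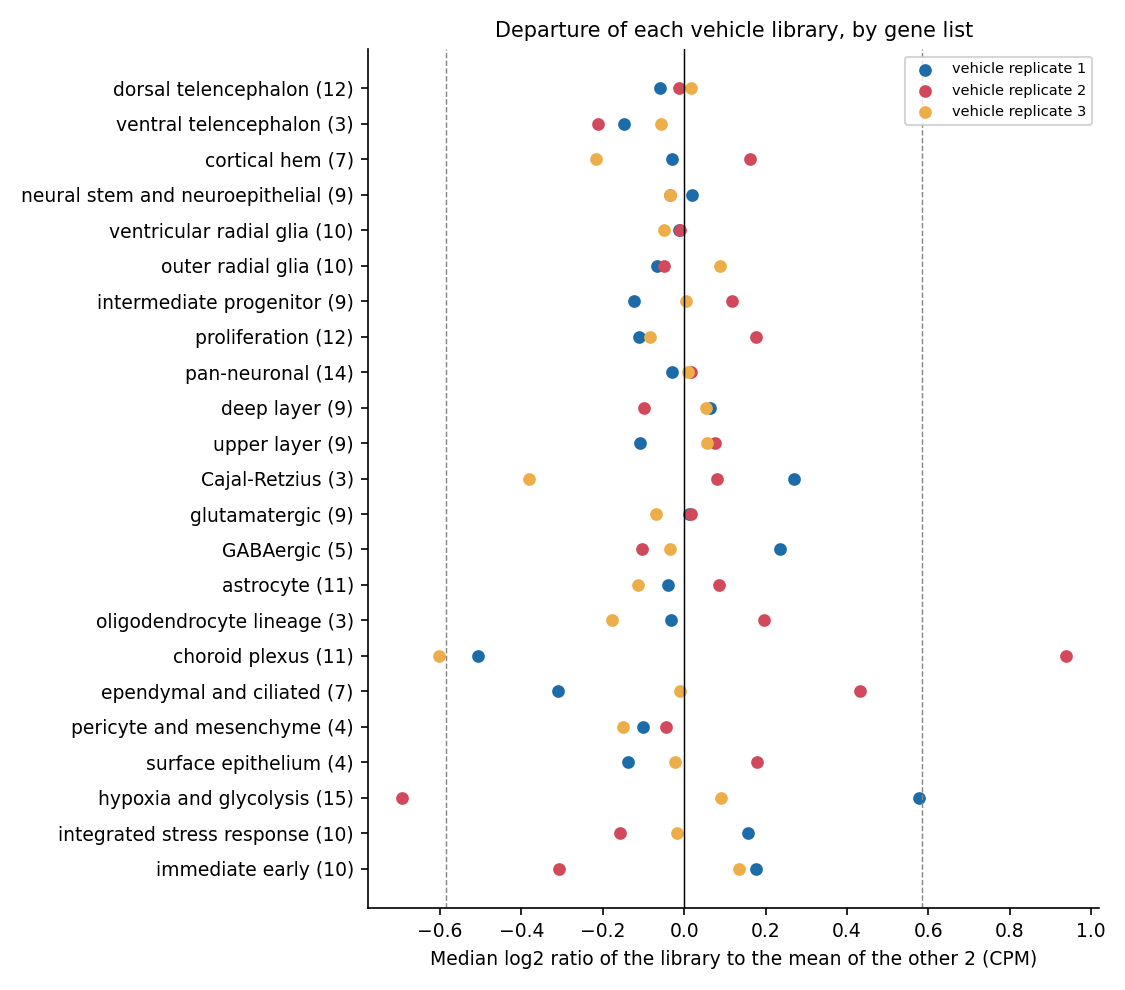
Departure of each vehicle library by list, as the median over expressed members (their number in parentheses, lists with at least 3) of the log2 ratio of its CPM to the mean of the other 2, with dashed lines at 1.5-fold. Replicate 2 lies outside the lines for choroid plexus and for hypoxia and glycolysis.

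In 7 of 90 combinations of library and list the median passed 1.5-fold. They were replicate 2 for hypothalamus, eye, choroid plexus, endothelium and hypoxia, replicate 3 for choroid plexus and replicate 1 for endothelium. The hypothalamus and endothelium values are each those of a single expressed gene, FEZF1 and CLDN5, and the eye value that of 2 genes. The lists of dorsal identity, radial glia, layer and glutamatergic genes had medians between -0.11 and 0.09 in every library. With members at a TPM of at least 5 alone, 3 combinations passed that limit.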

How the data were processed

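RNA of the 3 vehicle libraries was read from 1 deposited table of 18056 genes. Per the labels' protocols, poly(A) RNA was made into stranded, PCR-amplified libraries. The submitters' processing notes name GRCh38, FastQC, STAR 2.7.11b and featureCounts 2.0.6. The annotation, and whether counting used strand, are not given in the sources used here. The authors deposited estimated counts and TPM for each gene in each library. About 87.4% of counts were whole, and counts were rounded for edgeR. Totals were 16465390 to 16637602, and the median count of 13483 genes kept by edgeR's filter gives a counting error of 4.34% to 4.38%, for counting error only.

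From these values, TMM-scaled CPM, the biological coefficient of variation (edgeR 4.0.16, R 4.3.3, intercept only) and correlations of log2 CPM (prior count 2) were computed, and checked on simulated data. DESeq2 1.42.0 size factors were an alternative. A single group has no contrast, so no test was made. Replicate pairs differed beyond sampling noise, with a chi-square per gene of 3.30 to 6.04 where 1 is the value for sampling noise, over 12151 genes.

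The members, the 36 lists (360 genes, 341 in the table, the other 19 not analysed here) and the measures were chosen with earlier results of these data known. Named genes were the 6 markers, the 20 with the highest mean TPM, the 3 highest and up to 4 at 0 counts per list, and the 10 with the widest spread. Any others were chosen after their values were seen. XIST and Y-linked genes were left out, and some genes the rule names are not reported here. Gene positions and promoters are from RefSeq (GRCh38.p14), overlaps from GENCODE 29.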

Additional observations from a re-analysis of the deposited data

How the results depend on the processing

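The number of genes expressed ranged from 11231 to 13685 over the other minimums, a CPM minimum, the rule of 1 library and each library left out, and the listed genes expressed from 156 to 211, all within 1.5 times the values reported. The count of genes that spread 1.5-fold, 267, depended most on the limits: it was 981 at a mean TPM of at least 1, 63 at a mean TPM of at least 20, 80 at 2-fold and 136 with a mean of at least 100 counts, the last chosen after seeing the data. Each of these settings changes which genes can be counted. With each library left out it ranged from 99 (without replicate 2) to 156, since 2 libraries spread less than 3, and it was 269 with DESeq2 size factors, 282 in TPM and 197 over genes with whole counts, also chosen after seeing the data. The coefficient of variation of 5.38% ranged from 4.22% (without replicate 2) to 6.58% (without replicate 3). The mean correlation of 0.9941 was 0.9928 without a filter on low counts and ranged from 0.9933 to 0.9953 with a library left out. The 7 departures past 1.5-fold became 3 with members at a TPM of at least 5, where lists with few or low members drop out. Of the counts per list, 15 moved at a minimum of 5 TPM, 2 at 0.5 TPM and 1 at a CPM of at least 1. No paired analysis was possible because a single group was described and no result comes from a test. Depth limits genes near 0, where 3 counts correspond to 0.180 to 0.182 CPM.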

Other observations

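Some gene groups listed after their values were seen add to the picture of the vehicle organoids. Their shares cannot show that a group differs from other genes, since the values were known when the lists were written. Of 19 imprinted genes, which are expressed from 1 parental copy, 15 were expressed, or 78.9%, against 72.4% of all genes in the table. They were led by PEG10 at 426, 445 and 449 TPM, SNRPN at 192, 207 and 186 TPM and BLCAP at 156, 168 and 160 TPM. Among the 13 with a mean TPM of at least 5, NNAT alone spread 1.5-fold, a rule met by 2.33% of all such genes. PEG3, an imprinted zinc finger gene, had 0 counts in all 3 libraries, and DLK1 was at 1.23, 1.31 and 1.26 TPM.

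Of 22 neuropeptides and peptide hormones 11 were expressed, and 6 of the 10 with a mean TPM of at least 5 spread 1.5-fold, against 2.33% of all such genes. Because this list was written after its members' values were seen, its shares here and below cannot show that the group differs from other genes. Behind NPY, neurotensin (NTS) was at 56.0, 43.4 and 43.0 TPM and CRH, the corticotropin-releasing hormone, at 23.0, 24.4 and 35.2 TPM. PENK, proenkephalin, was at 25.8, 33.3 and 20.7 TPM. TRH, the thyrotropin-releasing hormone, was at 14.8, 15.7 and 4.94 TPM and TAC3 at 8.23, 6.30 and 13.6 TPM. In CPM replicate 3 was lowest for 8 of the 11 expressed genes and highest for 2, where 29.9% and 31.5% of all expressed genes were, with a median log2 ratio to the mean of the other 2 of -0.33.

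Of 11 cancer-testis antigen genes, which are usually silent outside the germ line, 4 were expressed, all with near-identical copies and counts that were not whole. MAGEA2 was at 10.98, 4.41 and 13.4 TPM and CSAG3 at 19.3, 6.99 and 24.9 TPM, lowest in replicate 2. Summed over the pair of copies, MAGEA2 and MAGEA2B still spread 2.79-fold in CPM and CSAG2 and CSAG3 2.87-fold. The pair of UPK3BL1 and UPK3BL2, outside this list, also kept a spread of 2.03-fold as a sum. In contrast, SERF1A and SERF1B spread 4.12-fold and 9.98-fold singly and 1.15-fold as a sum, and U2AF1 and U2AF1L5 1.41-fold and 3.71-fold singly and 1.07-fold as a sum. The sums of SMIM11A and SMIM11B, MAGED4 and MAGED4B, H4C11 and H4C12, and BOLA2 and BOLA2B spread 1.12-fold, 1.09-fold, 1.32-fold and 1.43-fold.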
